A study of Mus musculus with 12 samples.

Results

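The spliceosome is the RNA and protein machine that removes introns from pre-mRNA. Its core consists of small nuclear ribonucleoprotein particles (snRNPs), each a small nuclear RNA held by a ring of Sm proteins (U1, U2, U4 and U5) or of Lsm proteins (U6), with further proteins particular to each particle. U1 recognises the start of an intron, and U2 with the SF3A and SF3B complexes recognises the branch point. Prp proteins, some of them part of the U4/U6.U5 particle, help to prepare catalysis and take part in it. Neurons splice many transcripts in their own way, and one Sm gene, Snrpn, is best known from brain. The genes described here are the protein-coding genes of the GENCODE M21 annotation whose symbol begins with Snrp, Sf3a or Sf3b and a digit, Lsm and a digit, or Prpf and a digit, together with Phf5a. The rule used no measured value. It found 48 genes, all 48 of them among the 17283 genes of the deposited table, and all 48 passed the filter that left 13586 genes for testing (FPKM, fragments assigned to a gene scaled to its length and to the depth of the library, of at least 1 in 3 or more libraries). By role they comprise 8 Sm ring proteins, 5 proteins tied to U1, 12 of U2, 8 of the Lsm rings, 10 Prp proteins and 5 Lsm proteins of U7 or of other roles. Genes of splicing with other symbol stems, such as Snrnp70, are not among them and are treated as separate lists.

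RNA was sequenced from the mPFC (medial prefrontal cortex) of mice. C57 mice, labelled WT, and BTBR mice, labelled only as an inbred strain and used as a model of autism, received intraperitoneal injections for 7 days of either the DMSO solvent (vehicle) or ASIV (astragaloside IV, a plant saponin). The 4 groups, C57 vehicle, C57 ASIV, BTBR vehicle and BTBR ASIV, hold 3 libraries each. The sources used here do not give age, sex, dose, the exact substrain or whether animals were pooled, nor do they say that the 3 libraries of a group came from separate animals, so the p-values measure the spread between these libraries.

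The libraries held 16166328 to 18660040 fragments, as found from the steps of the deposited values. Of fragments assigned to genes, the mitochondrial genome took 4.91 to 5.24% in C57 vehicle, 3.57 to 5.18% in C57 ASIV, 0.589 to 1.16% in BTBR vehicle and 3.80 to 4.13% in BTBR ASIV. The BTBR vehicle libraries therefore stood apart from the other 9 in this measure, and its part in the results below was not tested. Cortical identity was checked with marker genes. Of markers of excitatory cortical neurons, Slc17a7 averaged 347 ± 38.7 FPKM in BTBR vehicle against 361 ± 24.1 in C57 vehicle, Camk2a 387 ± 40.4 against 612 ± 40.4, Tbr1 42.8 ± 6.76 against 34.1 ± 3.64 and Neurod6 12.3 ± 2.04 against 22.04 ± 2.46 (SD, n = 3). Of the 5 excitatory markers 0 were called higher and 3 lower than in C57 vehicle, so the higher Tbr1 was not called. Sums for 3 genes of striatum were 3.64 to 24.5 FPKM in C57 vehicle and 3.64 to 27.2 in C57 ASIV. They were 4.99 to 31.1 in BTBR vehicle and 3.27 to 61.8 in BTBR ASIV. For 2 genes of choroid plexus the sums were 0.404 to 0.935 in C57 vehicle and 0.426 to 0.893 in C57 ASIV. In BTBR vehicle they were 0.955 to 5.99 and in BTBR ASIV 1.03 to 9.60, without overlap between the strains. None of these genes that was tested was called between the strains. Markers of inhibitory neurons (5 of 5 in the table) summed to 984.7 to 1016 FPKM in BTBR vehicle and 415 to 628 in the other groups. Of these 5 genes 2 were called higher and 1 lower than in C57 vehicle. Most of the sum was Sst (783 ± 52.2 FPKM in BTBR vehicle, 290.1 ± 28.4 in C57 vehicle) and Pvalb (113 ± 31.9 and 39.2 ± 4.25), while Slc32a1 stood at 20.6 ± 0.266 and 39.2 ± 5.38, Gad1 at 48.7 ± 9.02 and 53.1 ± 13.9 and Gad2 at 34.7 ± 11.02 and 29.8 ± 4.74. The 4 endothelial markers summed to 94.1 to 122 FPKM in BTBR vehicle and 53.1 to 77.4 elsewhere, with 1 of the 4 called, and most of that sum was Cldn5 (88.3 ± 13.4 and 55.2 ± 3.99). Sums for astrocytes (136 to 200 FPKM), oligodendrocytes (401 to 1076), oligodendrocyte precursors (8.33 to 13.7), microglia (57.5 to 84.4) and blood (31.7 to 148) overlapped between BTBR vehicle and the other groups. Of the 5 astrocyte markers 1 was called higher and 1 lower than in C57 vehicle. Aldh1l1 stood at 25.8 ± 3.72 FPKM in BTBR vehicle and 15.4 ± 1.60 in C57 vehicle, and Aqp4 at 14.6 ± 2.78 and 26.2 ± 2.93. Of the 5 oligodendrocyte markers 1 was called higher, and of the 2 blood markers 1 lower. Within the 5 microglial markers 1 was called higher and 2 lower, with P2ry12 at 3.71 ± 1.32 FPKM in BTBR vehicle and 15.9 ± 1.29 in C57 vehicle, Cx3cr1 at 7.33 ± 1.80 and 14.5 ± 1.54 and Aif1 at 6.03 ± 1.22 and 3.06 ± 0.169. The part of these marker differences in the results below was not tested. In bulk tissue, fewer cells of a type and less RNA per cell cannot be told apart.

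The promoters of 5 genes are shown because these genes are among those that differed most between the BTBR vehicle libraries and the rest and have an exon-free promoter stretch; they were chosen with their values known. Snrpe and Lsm8 stood higher there, and Snrpf, Snrpa and Prpf8 lower. Sequences are from RefSeq on build GRCm38.p6, the same assembly as the mm10 named for the data, written 5′ to 3′ on the strand of the gene, and each is the longest stretch without an annotated exon within the 250 bases before the RefSeq start. Capitals mark matches on either strand to the GC box (GGGCGG), to CCAAT, to the TATA box (TATAAA), the ETS motif (CCGGAA), the E-box (CACGTG), the CRE (TGACGTCA) or the palindromic NRF1 motif.
Snrpe (chr1:133610292-133610410, minus strand): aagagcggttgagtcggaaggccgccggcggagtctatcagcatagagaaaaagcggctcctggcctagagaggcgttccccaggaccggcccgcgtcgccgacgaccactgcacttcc
Lsm8 (chr6:18848385-18848578, plus strand): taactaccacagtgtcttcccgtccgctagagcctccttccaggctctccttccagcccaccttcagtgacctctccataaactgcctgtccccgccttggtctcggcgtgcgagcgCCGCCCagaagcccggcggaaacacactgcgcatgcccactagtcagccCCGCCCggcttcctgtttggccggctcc
Snrpf (chr10:93589771-93589908, minus strand): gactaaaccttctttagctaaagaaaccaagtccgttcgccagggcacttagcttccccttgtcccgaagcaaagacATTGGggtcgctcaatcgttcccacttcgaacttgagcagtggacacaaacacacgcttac
Snrpa (chr7:27196272-27196521, minus strand): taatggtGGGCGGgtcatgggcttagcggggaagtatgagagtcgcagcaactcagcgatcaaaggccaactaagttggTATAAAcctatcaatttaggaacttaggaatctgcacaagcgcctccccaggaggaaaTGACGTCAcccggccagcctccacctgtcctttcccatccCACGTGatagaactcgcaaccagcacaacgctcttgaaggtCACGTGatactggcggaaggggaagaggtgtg
Prpf8 (chr11:75486527-75486776, plus strand): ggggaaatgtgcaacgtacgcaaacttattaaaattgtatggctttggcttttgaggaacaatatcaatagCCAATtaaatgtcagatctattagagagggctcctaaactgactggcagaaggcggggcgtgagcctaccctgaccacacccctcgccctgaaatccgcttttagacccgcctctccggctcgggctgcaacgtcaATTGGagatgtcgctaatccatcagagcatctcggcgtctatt

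The printed stretch of Snrpe holds none of the motifs, that of Lsm8 holds 2 GC boxes and that of Snrpf 1 CCAAT box. Snrpa has 1 GC box, 1 TATA box, 1 CRE and 2 E-boxes, and Prpf8 has 2 CCAAT boxes. A promoter window was found for 38 of the 48 genes. Over the full 250 bases the ETS motif was present in 17 of 38 (44.7%), against 12.03% of all 32851 RefSeq promoter windows of that length. The GC box was present in 21 of 38 (55.3%, against 32.7%), the CCAAT box in 15 (39.5%, against 33.9%) and the TATA box in 2 (5.26%, against 12.4%). The E-box stood in 3 (7.89%, against 6.02%), the CRE in 2 (5.26%, against 1.55%) and the NRF1 motif in 0 (against 0.782%). The ETS motif was found in 5 of 13 genes that were higher in BTBR vehicle than in C57 vehicle, in 5 of 11 that were lower and in 7 of 14 that were not called. These matches describe letters in a window, not sites.

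Values after ± on the log2 scale are standard errors. Without the compound, BTBR was compared with C57 to see which spliceosome genes set the strains apart. Of the 48 genes, 20 were higher and 13 lower in BTBR vehicle than in C57 vehicle, and 15 were not called (limma on log2(FPKM + 1), Benjamini-Hochberg adjusted p under 0.05 over all genes tested). Together 68.8% were called, where 43.1% of all 13586 genes were, 22.3% higher and 20.8% lower. Over all genes the balance depends on the scaling, with 3026 higher and 2832 lower here, but 2575 and 3243 after rescaling without mitochondrial genes, where 18 of the 48 were higher and 13 lower. After rescaling to TPM, which sums to the same total in each library, 3297 of all genes were higher and 2291 lower. In 34 of the 48 the 3 libraries of one group lay wholly beyond those of the other, as in 53.3% of all genes. The median log2 difference of the 48 was 0.21 (0.01 over all genes), and the median absolute difference 0.45 (0.29 over all genes). Within the Sm ring, U1, U2 and the Lsm rings, genes called higher stood beside genes called lower. The sum of all 48 levels was 686 to 731 FPKM in C57 vehicle, 718 to 817 in C57 ASIV, 848 to 935 in BTBR vehicle and 705 to 732 in BTBR ASIV. Abundant genes weigh most in this sum. Without Snrpn it was 516 to 549 in C57 vehicle, 545 to 597 in C57 ASIV, 607 to 654 in BTBR vehicle and 519 to 547 in BTBR ASIV.

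**Figure D1:**
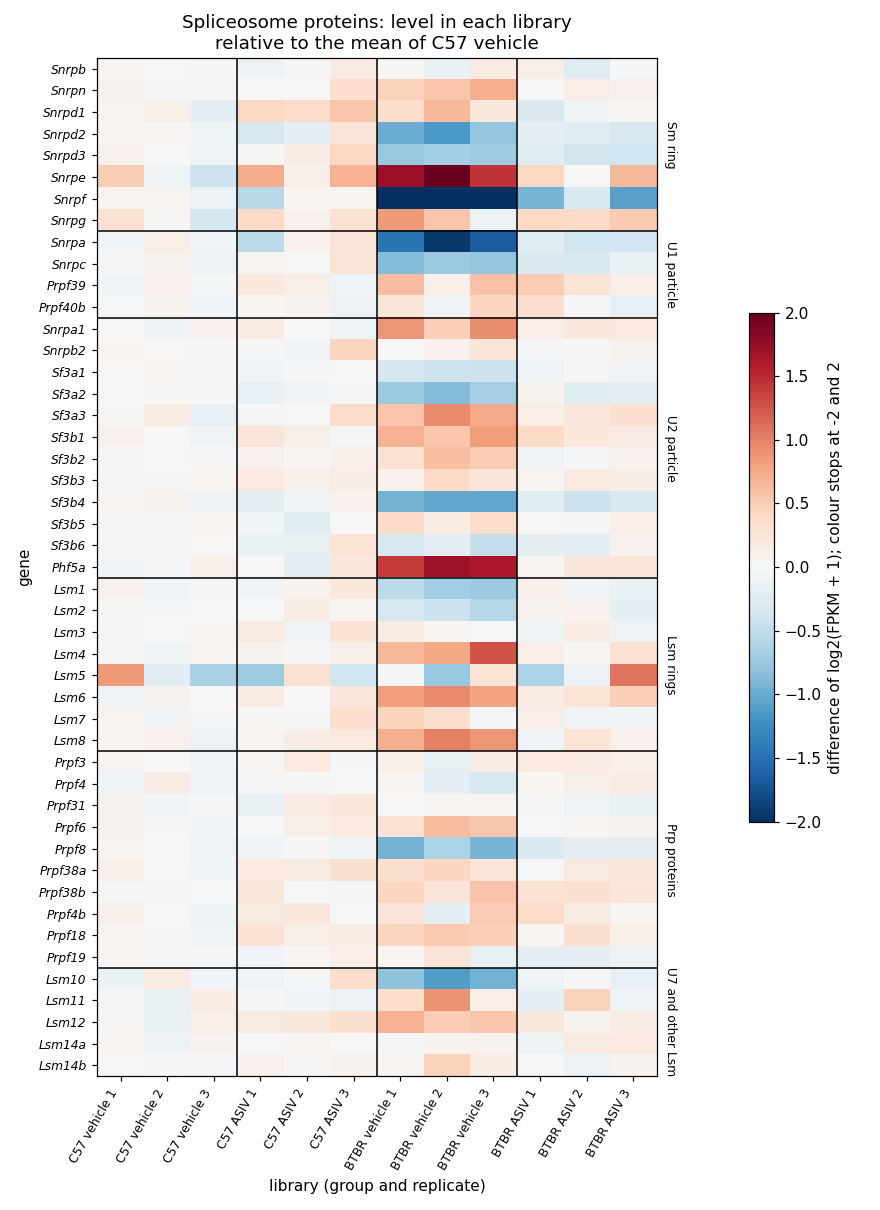
Level of 47 of the genes (rows, by role) in each of the 12 libraries (columns), as the difference of log2(FPKM + 1) from the mean of the 3 C57 vehicle libraries. Red is higher and blue lower, and the colour stops at -2 and 2. The 3 BTBR vehicle columns hold both the deepest red (Snrpe, Phf5a) and the deepest blue (Snrpf, Snrpa), while the BTBR ASIV columns are paler.

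The Sm ring consists of 7 proteins (B, D1, D2, D3, E, F and G) that close around the small nuclear RNA, and SmN, the product of Snrpn, takes the place of SmB in neurons. Of the 8 genes, 3 were higher in BTBR vehicle, 3 lower and 2 not called. SmE and SmF enter the ring together with SmG as a trimer. Snrpe, the gene of SmE (chromosome 1, 133603871 to 133610291, mm10), had 9.34, 5.90 and 4.48 FPKM in C57 vehicle, 11.3, 6.93 and 10.8 in C57 ASIV, 23.04, 28.3 and 18.9 in BTBR vehicle and 8.70, 6.32 and 10.5 in BTBR ASIV. Every BTBR vehicle library lay above all 9 others, which overlapped among themselves. The strain difference under vehicle was 1.72 ± 0.25 (SE, adjusted p = 0.000287) on the log2 scale. Snrpe has a near-identical processed copy, Snrpert, whose levels in BTBR vehicle (6.54, 6.72 and 10.2 FPKM) overlapped those in C57 vehicle (5.57, 9.37 and 7.94).

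Snrpf, the gene of SmF (chromosome 10, 93583029 to 93589706), went the other way. It had 7.97, 7.98 and 6.93 FPKM in C57 vehicle, 4.85, 7.86 and 7.82 in C57 ASIV, 0.193, 0.136 and 0.216 in BTBR vehicle and 3.53, 5.97 and 3.08 in BTBR ASIV. These BTBR vehicle values rest on 3, 2 and 3 fragments, against 128, 113 and 97 in C57 vehicle. The ratio of summed fragments per depth, C57 vehicle over BTBR vehicle, was 42.2 (95% exact interval 21.2 to 98.6, counting error only), and BTBR ASIV over BTBR vehicle gave 23.1 (11.5 to 54.2). On the log2(FPKM + 1) scale the strain difference was -2.87 ± 0.19 (SE, adjusted p = 1.64e-06), a scale that compresses it, and with a pseudocount of 0.1 it was -4.79. Snrpe over Snrpf was 0.647 to 1.17 in C57 vehicle, 0.882 to 2.32 in C57 ASIV, 87.6 to 208 in BTBR vehicle and 1.06 to 3.42 in BTBR ASIV. Of the exon bases of Snrpf, 85.4% also lie in exons of genes of the opposite strand (Ccdc38 and 4933408J17Rik), and the strand setting of the counting is not given, so that the level of Snrpf is uncertain. Ccdc38 itself stood at 0.171 ± 0.0519 FPKM in BTBR vehicle against 0.122 ± 0.0883 in C57 vehicle (SD, n = 3). Snrpf also has 1 near-identical processed copy, Gm13092, not analysed here.

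The D proteins pair as D1 with D2 and as D3 with B. Snrpd2 had 15.1, 15.1 and 13.7 FPKM in C57 vehicle, 11.5, 12.7 and 17.7 in C57 ASIV, 6.86, 6.06 and 8.10 in BTBR vehicle and 12.8, 12.3 and 11.4 in BTBR ASIV, with all 3 BTBR vehicle libraries below the other 9. Snrpd3 had 14.5, 13.7 and 12.8 FPKM in C57 vehicle, 13.8, 15.3 and 18.6 in C57 ASIV, 7.67, 8.18 and 7.96 in BTBR vehicle and 11.4, 10.3 and 10.1 in BTBR ASIV. Here too BTBR vehicle lay lowest, and BTBR ASIV lay between it and the C57 groups without overlap. The strain difference under vehicle was -0.97 ± 0.14 (SE, adjusted p = 0.000193) for Snrpd2 and -0.71 ± 0.10 (SE, adjusted p = 0.0002) for Snrpd3. Snrpd1 was higher, at 0.41 ± 0.13 (adjusted p = 0.0229), a call lost without BTBR vehicle replicate 2 (adjusted p = 0.0805) and without C57 vehicle replicate 3 (0.0993), and Snrpb stood at 0.02 ± 0.11 (adjusted p = 0.915). Snrpn, the most abundant of the 48 genes, averaged 261 ± 22.5 FPKM in BTBR vehicle against 174 ± 7.18 in C57 vehicle (SD, n = 3), a difference of 0.58 ± 0.11 (SE, adjusted p = 0.00112). Snrpn over Snrpb was 5.35 to 5.61 in C57 vehicle and 7.46 to 8.92 in BTBR vehicle. Snrpn shares exon bases with Snurf on its own strand; fragments of the shared bases cannot be told apart. Snrpg, the gene of SmG, ranged from 4.98 to 12.6 FPKM and was not called (0.43 ± 0.21, adjusted p = 0.128).

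**Figure D2:**
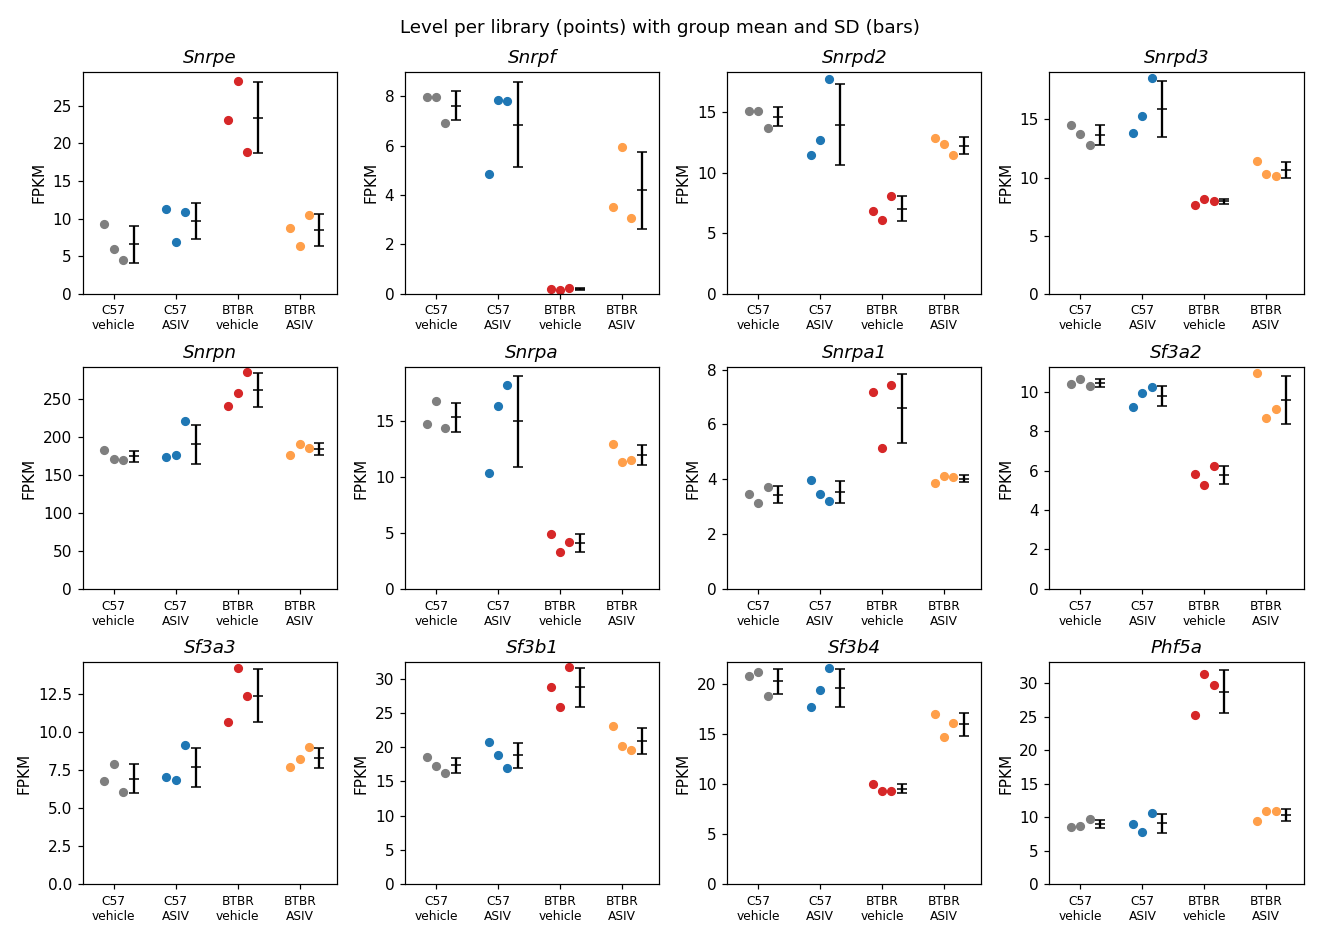
FPKM in each library (points) with the group mean and SD over 3 libraries (bars) for 12 genes of the Sm ring, U1 and U2. Each axis starts at 0. Snrpe, Snrpn, Snrpa1, Sf3a3, Sf3b1 and Phf5a are highest in BTBR vehicle, and Snrpf, Snrpd2, Snrpd3, Snrpa, Sf3a2 and Sf3b4 are lowest there.

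Among the proteins tied to U1, both that belong to the particle itself were lower in BTBR vehicle. Snrpa encodes the A protein of U1, which binds a stem loop of U1 RNA. It had 14.8, 16.8 and 14.4 FPKM in C57 vehicle, 10.4, 16.3 and 18.2 in C57 ASIV, 4.90, 3.30 and 4.17 in BTBR vehicle and 12.98, 11.3 and 11.5 in BTBR ASIV. The BTBR vehicle values lay below all others by a clear gap, and the strain difference was -1.68 ± 0.17 (SE, adjusted p = 2.22e-05). Snrpc encodes the C protein of U1, which helps U1 bind the start of the intron. Snrpc had 3.01, 3.12 and 2.68 FPKM in C57 vehicle, 3.06, 2.93 and 3.67 in C57 ASIV, 1.15, 1.34 and 1.30 in BTBR vehicle and 2.21, 2.17 and 2.58 in BTBR ASIV, again lowest in BTBR vehicle, with a difference of -0.80 ± 0.10 (SE, adjusted p = 7.37e-05). Prpf39 (0.43 ± 0.15), homologue of a yeast U1 protein, was higher, and Prpf40b stood at 0.20 ± 0.14 (adjusted p = 0.285). The call of Prpf39 was lost without any 1 of the C57 vehicle libraries and without BTBR vehicle replicate 1 or 3 (adjusted p up to 0.116). Prpf39 shares 5.01% of its exon bases with Fkbp3 of the opposite strand, which was itself lower in BTBR vehicle (log2 difference -0.94, adjusted p = 0.000101). Snrpa has 2 near-identical processed copies and Snrpc 3, none of them analysed here, so assignment of their fragments is uncertain, as it is for Snrpd1, Snrpd2, Snrpg, Snrpn, Sf3b4 and Lsm12, which also have such copies.

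U2 was the role with the largest share called, 11 of 12 genes, 7 higher and 4 lower. Snrpa1 encodes the A′ protein of U2, which binds U2 RNA together with the B″ protein. It had 3.46, 3.13 and 3.72 FPKM in C57 vehicle, 3.97, 3.46 and 3.19 in C57 ASIV, 7.20, 5.15 and 7.45 in BTBR vehicle and 3.87, 4.11 and 4.07 in BTBR ASIV, and the BTBR vehicle libraries lay above the other 9 (0.76 ± 0.12, adjusted p = 0.000383). Snrpb2, the gene of that B″ protein, was the 1 gene of this role not called (0.10 ± 0.12, adjusted p = 0.53). Snrpa, of U1, was 3.87 to 5.39 times the level of Snrpa1 in C57 vehicle and 0.560 to 0.681 times in BTBR vehicle.

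SF3A is a trimer that joins U2 to form the mature particle. Sf3a2 had 10.4, 10.7 and 10.3 FPKM in C57 vehicle, 9.20, 9.91 and 10.2 in C57 ASIV, 5.80, 5.29 and 6.24 in BTBR vehicle and 10.96, 8.65 and 9.11 in BTBR ASIV. Sf3a2 shares 16.1% of its exon bases with Plekhj1 of the opposite strand, whose log2 difference was 0.04. Sf3a3 had 6.81, 7.93 and 6.07 FPKM in C57 vehicle, 7.07, 6.85 and 9.16 in C57 ASIV, 10.7, 14.2 and 12.3 in BTBR vehicle and 7.68, 8.23 and 9.01 in BTBR ASIV. BTBR vehicle was lowest of the 4 groups for Sf3a2 and highest for Sf3a3, in each case without overlap with the other 9 libraries. The strain differences were -0.76 ± 0.10 (SE, adjusted p = 8.09e-05) for Sf3a2 and 0.75 ± 0.13 (SE, adjusted p = 0.000676) for Sf3a3, while Sf3a1 stood with Sf3a2 at -0.39 ± 0.07 (adjusted p = 0.00121). Sf3a3 over Sf3a2 was 0.591 to 0.743 in C57 vehicle, 0.691 to 0.896 in C57 ASIV, 1.84 to 2.68 in BTBR vehicle and 0.700 to 0.988 in BTBR ASIV.

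SF3B grips the branch point, with Sf3b1 as its scaffold and Phf5a as a small subunit that contacts Sf3b1 near the branch point adenosine. Phf5a (chromosome 15, 81864520 to 81871911) had 8.59, 8.73 and 9.68 FPKM in C57 vehicle, 8.91, 7.77 and 10.6 in C57 ASIV, 25.2, 31.3 and 29.7 in BTBR vehicle and 9.34, 10.8 and 10.9 in BTBR ASIV. All 3 BTBR vehicle libraries lay far above the other 9. Its strain difference was 1.57 ± 0.12 (SE, adjusted p = 2.67e-06). Sf3b1 had 18.5, 17.2 and 16.3 FPKM in C57 vehicle, 20.7, 18.8 and 16.9 in C57 ASIV, 28.8, 25.9 and 31.6 in BTBR vehicle and 23.1, 20.2 and 19.5 in BTBR ASIV, higher in BTBR vehicle than in any other library (0.70 ± 0.11, adjusted p = 0.000273). Sf3b4, which contacts the pre-mRNA upstream of the branch point, had 20.8, 21.2 and 18.8 FPKM in C57 vehicle, 17.8, 19.5 and 21.6 in C57 ASIV, 10.04, 9.29 and 9.33 in BTBR vehicle and 17.04, 14.7 and 16.1 in BTBR ASIV. Here all 3 BTBR vehicle libraries lay below the others (-1.01 ± 0.09, adjusted p = 1.06e-05). Phf5a over Sf3b4 went from 0.411 to 0.515 in C57 vehicle to 2.51 to 3.37 in BTBR vehicle, and was 0.548 to 0.735 in BTBR ASIV. The other subunits moved less: Sf3b2 was higher (0.47 ± 0.09), as were Sf3b3 (0.24 ± 0.09) and Sf3b5 (0.29 ± 0.09), and Sf3b6 was lower (-0.33 ± 0.12). The call of Sf3b5 was lost without C57 vehicle replicate 1 or 2 or BTBR vehicle replicate 1 or 3 (adjusted p up to 0.0723). Those of Sf3b3 and Sf3b6 were each lost in 9 of the 12 fits without 1 library, with adjusted p up to 0.139 and 0.165. Sf3b3 stayed called only without C57 ASIV replicate 3, BTBR vehicle replicate 1 or BTBR ASIV replicate 1, and Sf3b6 only without C57 ASIV replicate 3, BTBR vehicle replicate 2 or BTBR ASIV replicate 3.

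The Lsm proteins 2 to 8 form the ring of U6 in the nucleus, and Lsm1 replaces Lsm8 in a cytoplasmic ring that promotes mRNA decay. Of the 8 genes 3 were higher (Lsm4, Lsm6 and Lsm8), 2 lower (Lsm1 and Lsm2) and 3 not called. Lsm8, particular to the nuclear ring, had 3.59, 3.75 and 3.13 FPKM in C57 vehicle, 3.64, 3.94 and 4.14 in C57 ASIV, 6.33, 8.03 and 7.26 in BTBR vehicle and 3.28, 4.42 and 3.73 in BTBR ASIV. Lsm1, particular to the cytoplasmic ring, had 4.21, 3.72 and 3.86 FPKM in C57 vehicle, 3.66, 4.14 and 4.70 in C57 ASIV, 2.43, 2.04 and 1.98 in BTBR vehicle and 4.30, 3.70 and 3.48 in BTBR ASIV. BTBR vehicle was the highest group for Lsm8 (0.87 ± 0.11, adjusted p = 9.21e-05) and the lowest for Lsm1 (-0.65 ± 0.11, adjusted p = 0.000453), with no overlap in either case. Lsm4 had 38.8, 35.9 and 39.8 FPKM in C57 vehicle, 40.1, 36.97 and 41.4 in C57 ASIV, 60.9, 65.8 and 92.4 in BTBR vehicle and 41.9, 39.2 and 47.2 in BTBR ASIV. Its 3 BTBR vehicle values were spread widely and still lay above the rest (0.90 ± 0.14, adjusted p = 0.00029). Lsm6 had 7.14, 7.998 and 7.61 FPKM in C57 vehicle, 8.65, 7.66 and 8.87 in C57 ASIV, 14.2, 15.5 and 13.9 in BTBR vehicle and 8.63, 9.41 and 10.9 in BTBR ASIV, also highest in BTBR vehicle (0.85 ± 0.10, adjusted p = 3.94e-05). Lsm2 was lower by a smaller amount (-0.44 ± 0.10, adjusted p = 0.00488). Lsm3 (0.07 ± 0.11), Lsm5 (-0.17 ± 0.50) and Lsm7 (0.26 ± 0.13) were not called. Lsm5 was the most variable of the 48 between replicates, at 3.18, 0.998 and 0.466 FPKM in C57 vehicle. Lsm5 has 2 near-identical copies, Lsm6 has 4 and Lsm7 has 2, so these levels are uncertain.

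Of the 10 Prp proteins 4 were higher, 1 was lower and 5 were not called. Prpf8 encodes the large U5 protein that holds the catalytic RNA core. It had 30.3, 29.7 and 28.4 FPKM in C57 vehicle, 28.5, 30.1 and 27.7 in C57 ASIV, 14.8, 18.7 and 14.9 in BTBR vehicle and 24.1, 25.6 and 26.04 in BTBR ASIV. BTBR vehicle lay below all other libraries, and the difference was -0.84 ± 0.09 (SE, adjusted p = 3.89e-05). Prpf6, which bridges U5 and U4/U6, was higher (0.49 ± 0.10), as were Prpf18 (0.47 ± 0.09), a late catalytic factor, Prpf38a (0.34 ± 0.09) and Prpf38b (0.42 ± 0.10). The call of Prpf38a was lost without C57 vehicle replicate 3 (adjusted p = 0.0516). Prpf3, Prpf4 and Prpf31, which belong to U4/U6, and the kinase gene Prpf4b and the ubiquitin ligase gene Prpf19 were not called, with log2 differences from -0.15 for Prpf4 to 0.19 for Prpf4b. The remaining Lsm genes include Lsm10 and Lsm11, whose products replace 2 Sm proteins in the U7 particle of histone mRNA processing. Lsm10 had 4.77, 6.19 and 5.09 FPKM in C57 vehicle, 4.95, 5.22 and 7.08 in C57 ASIV, 2.64, 1.92 and 2.30 in BTBR vehicle and 4.95, 5.21 and 4.64 in BTBR ASIV, lowest in BTBR vehicle (-0.95 ± 0.13, adjusted p = 0.000146). Lsm11 stood at 0.46 ± 0.19 (adjusted p = 0.072). Lsm12 was higher (0.58 ± 0.09, adjusted p = 0.000436), and Lsm14a (0.03 ± 0.09) and Lsm14b (0.22 ± 0.10) were not called.

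In 15 of the 48 genes all 3 BTBR vehicle libraries lay above the other 9 libraries, and in 13 all 3 lay below them. Of all tested genes 28.7% had the BTBR vehicle libraries on one side of the rest, 15.1% above and 13.6% below. By role this held for 10 of 12 genes of U2, 5 of 8 Sm genes, 5 of 8 Lsm ring genes, 3 of 5 of U1, 3 of 10 Prp genes and 2 of the remaining 5. The genes called higher had a median exon length of 3968 bases (1038 to 11967) and those called lower of 2964 (861 to 7461). Their median C57 vehicle level was 7.56 FPKM for the 20 higher and 10.4 for the 13 lower. Near-identical copies (at least 95% identity over at least 80% of the coding sequence) exist for 5 of the 20, 5 of the 13 and 3 of the 15 not called. An exon shared with a gene of the opposite strand was found for 4, 5 and 3 of them. These are descriptions, and their part in the differences was not tested.

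**Figure D3:**
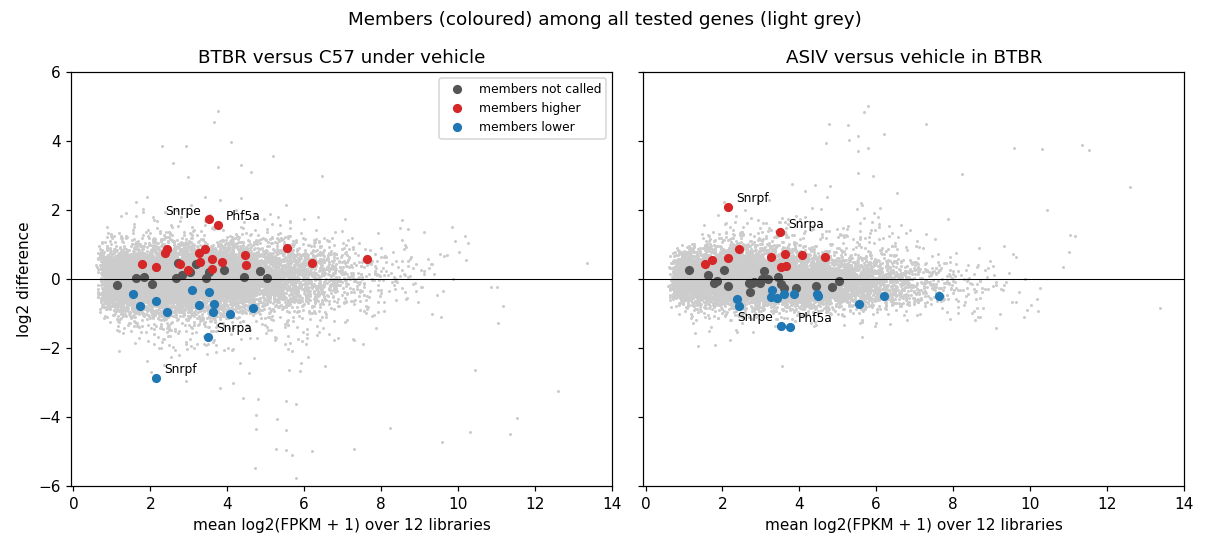
Log2 difference (vertical) against mean log2(FPKM + 1) over the 12 libraries (horizontal) for all 13586 tested genes in light grey and 47 of the spliceosome genes in colour (red higher, blue lower, dark grey not called), for the strains under vehicle (left) and ASIV in BTBR (right). Snrpe and Phf5a stand at 1.72 and 1.57 on the left, and Snrpf and Snrpa at -2.87 and -1.68.

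The next comparison was of ASIV with vehicle within BTBR, the question being the effect of the compound there. Of the 48 genes 12 were higher and 14 lower under ASIV, and 22 were not called. This is 54.2% called, where 29.1% of all tested genes were (13.7% higher and 15.4% lower). Over all genes 1864 were higher and 2090 lower, but 2169 and 1766 after rescaling without mitochondrial genes, where the counts among the 48 were again 12 and 14. With only the groups compared in the fit, 1111 of all genes were higher and 1147 lower. Libraries of the 2 groups were fully separate for 31 of the 48, and for 39.1% of all genes. The median log2 difference was -0.12, against -0.01 over all genes. This comparison uses the same BTBR vehicle libraries as the strain comparison above, so the values of both are given side by side and are not independent.

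In the Sm ring Snrpf (2.10 ± 0.19, adjusted p = 4.69e-05), Snrpd2 (0.73 ± 0.14) and Snrpd3 (0.38 ± 0.10) were higher under ASIV. Snrpe (-1.37 ± 0.25, adjusted p = 0.00225), Snrpd1 (-0.51 ± 0.13) and Snrpn (-0.50 ± 0.11) were lower. In fragments, Snrpf had 56, 93 and 49 under ASIV against the 3, 2 and 3 of vehicle. The call of Snrpd3 was lost without BTBR ASIV replicate 1 (adjusted p = 0.058). Of the U1 particle, Snrpa (1.35 ± 0.17, adjusted p = 0.000271) and Snrpc (0.55 ± 0.10, adjusted p = 0.00164) rose. In U2, Phf5a fell by the largest amount of the 48 genes (-1.39 ± 0.12, adjusted p = 2.79e-05), and Snrpa1 (-0.58 ± 0.12), Sf3a3 (-0.52 ± 0.13), Sf3b1 (-0.44 ± 0.11) and Sf3b2 (-0.48 ± 0.09) fell with it. Sf3b4 (0.68 ± 0.09, adjusted p = 0.00035), Sf3a2 (0.64 ± 0.10) and Sf3a1 (0.34 ± 0.07) rose. Sf3b3, Sf3b5, Sf3b6 and Snrpb2 did not pass, at -0.26 (Sf3b5) to 0.24 (Sf3b6).

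Of the Lsm rings, Lsm1 (0.61 ± 0.11, adjusted p = 0.00126) and Lsm2 (0.44 ± 0.10) rose, and Lsm8 (-0.77 ± 0.11, adjusted p = 0.000472), Lsm4 (-0.74 ± 0.14) and Lsm6 (-0.55 ± 0.10) fell. Prpf8 rose (0.62 ± 0.09, adjusted p = 0.00066), and Prpf6 (-0.45 ± 0.10) and Prpf18 (-0.32 ± 0.09) fell. Lsm10 rose (0.86 ± 0.13, adjusted p = 0.00066) and Lsm12 fell (-0.44 ± 0.09). The call of Prpf18 was lost without BTBR ASIV replicate 1 (adjusted p = 0.0781) or replicate 3 (0.0624).

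**Figure D4:**
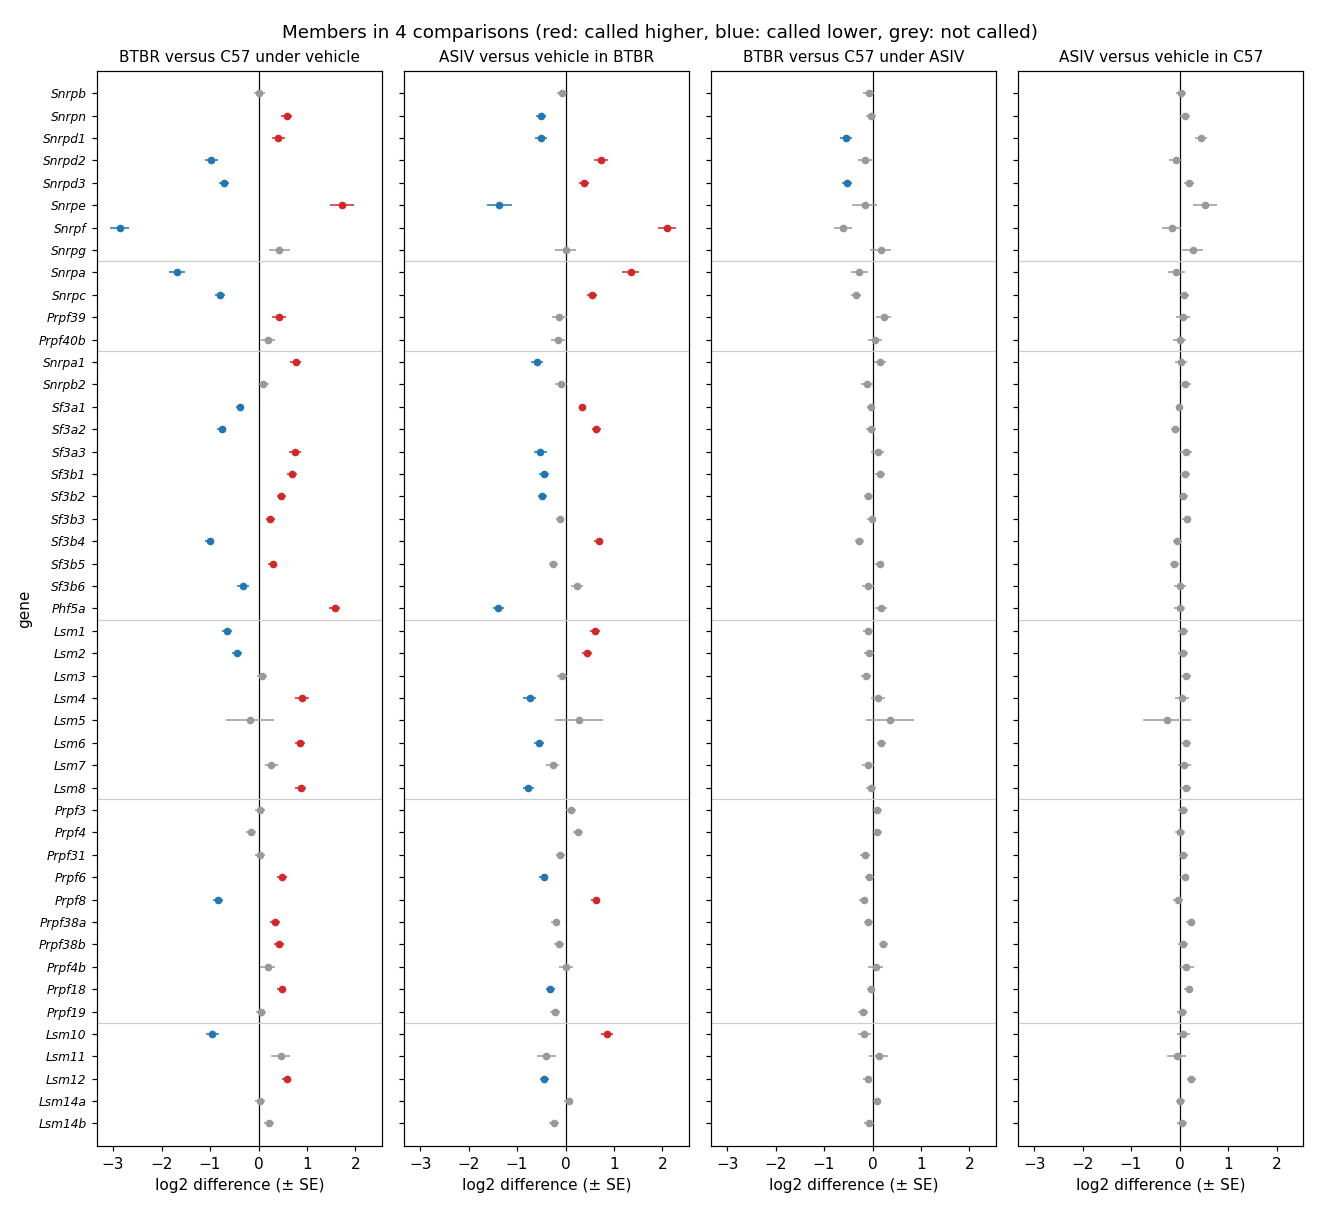
Log2 difference with its SE for 47 of the genes (rows, by role) in 4 comparisons. Red marks genes called higher, blue called lower and grey not called. The left panel has 19 red and 13 blue points, the next 12 and 14, the one after it 2 blue points and the right panel none. The 2 left panels both use the BTBR vehicle libraries.

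The strains were also compared under ASIV. The difference rests on the 6 ASIV libraries, and its SE and adjusted p on the spread within all 4 groups. Of the 48 genes 0 were higher and 2 lower in BTBR ASIV than in C57 ASIV, where 2.53% of all tested genes were called (1.31% higher and 1.22% lower). At an unadjusted p under 0.05 there were 6 of the 48 and 2614 of all 13586 genes. Limma voom on rebuilt fragments called 0 of the 48 higher and 2 lower. Full separation of the 2 groups was seen for 8 of the 48, and for 26.2% of all genes. The median absolute log2 difference of the 48 was 0.11 (0.14 over all genes). The 2 genes are the D proteins Snrpd3 and Snrpd1. Snrpd3 stood at 13.8, 15.3 and 18.6 FPKM in C57 ASIV and 11.4, 10.3 and 10.1 in BTBR ASIV (-0.53 ± 0.10, adjusted p = 0.0188). Snrpd1 stood at 25.3, 24.4 and 27.8 FPKM in C57 ASIV and 15.04, 18.02 and 19.2 in BTBR ASIV (-0.55 ± 0.13, adjusted p = 0.0454). Neither pair of groups overlapped. The call of Snrpd3 was lost without C57 ASIV replicate 2 or 3 (adjusted p = 0.0685 and 0.0703) and without BTBR ASIV replicate 3 (0.0839), and with only the groups compared (0.0561). That of Snrpd1 was lost in 10 of the 12 fits without 1 library, with adjusted p of up to 0.169, and kept only without BTBR vehicle replicate 2 or 3. Snrpf had the largest absolute difference, -0.61 (adjusted p = 0.119), and was called without C57 ASIV replicate 1 (adjusted p = 0.0456) and without BTBR ASIV replicate 2 (0.0211). For the genes that differed most under vehicle, the values under ASIV were -0.16 ± 0.25 for Snrpe, 0.18 ± 0.12 for Phf5a, -0.27 ± 0.17 for Snrpa and -0.28 ± 0.09 for Sf3b4, and none of these was called.

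In C57 mice ASIV called none of the 48 genes, and none of the 13586 (0%). At an unadjusted p under 0.05 there were 3 of the 48 and 417 of all genes, and limma voom also called 0 of the 48. The groups did not overlap in 7, and in 13.1% of all genes. The 3 with the smallest p among those higher were Snrpd1 (0.45 ± 0.13), Lsm12 (0.24 ± 0.09) and Prpf38a (0.23 ± 0.09), and among those lower Sf3b5 (-0.11 ± 0.09), Sf3a2 (-0.09 ± 0.10) and Snrpf (-0.16 ± 0.19), each with an adjusted p of 1.00. The largest values in absolute terms were Snrpe (0.52 ± 0.25) and Snrpd1. A p that misses the threshold does not show that these genes stayed the same.

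Whether ASIV acted differently in the strains was tested with the interaction. Of the 48 genes 10 had a higher and 15 a lower log2 effect of ASIV in BTBR than in C57, or 52.1%, where 14.3% of all tested genes were called (6.91% and 7.36%). Over all genes the share of calls that were higher was 48.4%, but 39.0% after rescaling to TPM and 58.7% after rescaling without mitochondrial genes. The interaction uses the BTBR vehicle libraries as well. Snrpf had the highest value (2.26 ± 0.27, adjusted p = 0.00081), followed by Snrpa (1.41 ± 0.24, adjusted p = 0.0042). Snrpe had the lowest (-1.88 ± 0.36, adjusted p = 0.00677), followed by Phf5a (-1.39 ± 0.16, adjusted p = 0.000755). Snrpd1 stood at -0.95 ± 0.18 (SE, adjusted p = 0.00636). The lower count was 9 without C57 vehicle replicate 2 and also 9 without C57 vehicle replicate 3.

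Other genes of splicing were taken from lists, and their counts in BTBR vehicle against C57 vehicle stand beside the 43.1% called among all genes. Of 4 further U1 proteins 3 were higher and 0 lower in BTBR vehicle than in C57 vehicle (median log2 difference 0.72), led by Luc7l (0.68 ± 0.10, adjusted p = 0.000312), Luc7l3 (0.77 ± 0.16) and Snrnp70 (0.82 ± 0.25). Of 11 tested genes of U2 partners and branch point recognition 6 were higher and 2 lower (median 0.25). Cherp (-1.12 ± 0.09, adjusted p = 3.92e-06) and Sf1 (-0.56 ± 0.09), the branch point binding protein, were lower, and U2af1 (0.69 ± 0.12), the small subunit of the factor that reads the end of the intron, was higher. Of 12 further proteins of U5 and the tri-snRNP 4 were higher and 1 lower (median 0.05), a share near that of all genes, with Sart1 (1.12 ± 0.09, adjusted p = 5.28e-06), Sart3 (0.78 ± 0.08) and the helicase Ddx23 (0.51 ± 0.09) higher. The minor spliceosome, which removes a rare class of introns, had 5 of 8 higher and 0 lower (median 0.40), among them Zcrb1 (0.89 ± 0.09, adjusted p = 1.67e-05), Pdcd7 (0.90 ± 0.16) and Snrnp48 (0.51 ± 0.14).

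The Prp19 complex and catalytic stage list had 7 higher and 4 lower of 19 (median 0.19), with Bcas2 (0.61 ± 0.07, adjusted p = 5.87e-05) and the helicases Dhx16 (0.85 ± 0.11) and Dhx38 (0.42 ± 0.08) higher. Assembly of snRNPs by the SMN complex and its helpers had 7 higher and 1 lower of 15 tested (median 0.16). The lower one was Gemin7 (-1.27 ± 0.12, adjusted p = 1.53e-05), a subunit of the SMN complex, while Gemin2 (0.64 ± 0.11), which holds the Sm pentamer, and Wdr77 (0.93 ± 0.09), a partner of the methyltransferase Prmt5, were higher. Partners of the cytoplasmic Lsm ring in mRNA decay had 1 higher and 2 lower of 8 (median -0.10), also near that share. Patl1, which binds that ring, was lower (-0.71 ± 0.10, adjusted p = 0.000199), and so was Dcp1b (-0.48 ± 0.14), whereas the decapping enzyme Dcp2 was higher (0.43 ± 0.12).

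Regulators of splice site choice were taken as further lists. SR proteins had 9 higher and 1 lower of 13 (median 0.51), with Srsf9 (1.04 ± 0.14, adjusted p = 0.000107), Srsf3 (0.84 ± 0.09) and Srsf1 (0.67 ± 0.09) among the higher ones. Of 24 hnRNP genes 11 were higher and 5 lower (median 0.20). Hnrnpm (1.27 ± 0.09, adjusted p = 2.67e-06) and Hnrnph1 (0.80 ± 0.09) were higher, and Pcbp2, a poly(C)-binding protein, was lower, at 3.004 ± 0.942 FPKM in BTBR vehicle against 16.9 ± 0.296 in C57 vehicle (SD, n = 3, log2 -2.19 ± 0.19, adjusted p = 9.64e-06). Neuronal splicing regulators had 4 higher and 11 lower of 21 tested (median -0.30), with Celf3 (-0.90 ± 0.11, adjusted p = 7.25e-05), Celf5 (-0.80 ± 0.09) and Elavl3 (-0.74 ± 0.10) lower. Under ASIV in BTBR the SR list had 2 higher and 6 lower (median -0.29), the hnRNP list 4 higher and 11 lower (median -0.26) and the neuronal list 8 higher and 3 lower (median 0.21), with the same BTBR vehicle libraries as the reference and where 29.1% of all genes were called. Between the strains under ASIV, where 2.53% of all genes were called, the Prp19 and catalytic stage list had 2 of 19 genes lower, the hnRNP list 1 of 24 lower, and the other 8 splicing lists 0 called.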

How the data were processed

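RNA-seq of mouse mPFC was analysed in 12 libraries, 3 in each of 4 groups. The deposited values are FPKM per gene, made by the authors, with HISAT2 2.0.5 and mm10 per the submitters' processing notes. For the counter, its annotation, strand setting and filters, nothing is stated: not given in the sources used here. From the deposited FPKM and GENCODE M21 exon lengths whole fragments were rebuilt (95.7 to 95.8% of values whole within 0.02), which gave 16166328 to 18660040 fragments a library. Replicates of a group differed by more than sampling noise (chi-square per gene 8.07 to 46.7). This value was 23.2 to 46.7 within BTBR vehicle and 8.07 to 8.74 within C57 vehicle, while the fit shared its spread over all 4 groups. Each library was counted as 1 sample, although this spread does not show that the libraries came from separate animals.

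Genes with FPKM of at least 1 in 3 libraries (13586 of 17283) were fitted with limma 3.58.1 (R 4.3.3) on log2(FPKM + 1), all 4 groups in 1 model with no covariate, and p-values were Benjamini-Hochberg adjusted over all genes tested. Fold changes are on that scale, which understates the change of low genes. Per-library values are given for 18 genes called in at least 1 of the 5 comparisons by at least 0.58 (1.5-fold) with groups that do not overlap; in the other splicing lists up to 3 genes with the smallest p between the strains under vehicle are named. The members and lists were chosen with earlier results of these data known. The counts cover all 48 genes, but values of 1 of them, which the figures leave out too, and of 1 marker are not reported here. Near-identical copies were found with blastn 2.17.0. Alternatives were a pseudocount of 0.1, no filter or one at FPKM 5, other scalings, limma voom on rebuilt fragments, only the groups compared, a replicate block and leaving out each library.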

Additional observations from a re-analysis of the deposited data

Results flagged for a closer look

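The effect of ASIV was called different between the strains in 25 of the 48 spliceosome genes, where 14.3% of all tested genes were called. The calls are from the limma interaction term with Benjamini-Hochberg adjustment over 13586 genes. That term uses the BTBR vehicle libraries, which lay wholly above or below the other 9 in 28.7% of all tested genes. Values are the log2 effect of ASIV in BTBR minus that in C57, with its SE. The effect was higher in BTBR for Snrpf (2.26 ± 0.27), Snrpa (1.41 ± 0.24), Snrpd2 (0.81 ± 0.20), Lsm10 (0.78 ± 0.19), Sf3b4 (0.73 ± 0.13), Sf3a2 (0.72 ± 0.13), Prpf8 (0.65 ± 0.13), Lsm1 (0.55 ± 0.15), Snrpc (0.45 ± 0.14) and Sf3a1 (0.35 ± 0.10). It was lower in BTBR for Snrpe (-1.88 ± 0.36), Phf5a (-1.39 ± 0.16), Snrpd1 (-0.95 ± 0.18), Lsm8 (-0.90 ± 0.16), Lsm4 (-0.79 ± 0.19), Lsm12 (-0.68 ± 0.13), Lsm6 (-0.68 ± 0.14) and Sf3a3 (-0.65 ± 0.18). It was also lower for Snrpn (-0.62 ± 0.15), Snrpa1 (-0.62 ± 0.17), Sf3b2 (-0.56 ± 0.13), Prpf6 (-0.56 ± 0.14), Sf3b1 (-0.55 ± 0.15), Prpf18 (-0.51 ± 0.13) and Prpf38a (-0.43 ± 0.13). The largest adjusted p among them was 0.0499 (Prpf38a) and the smallest 0.000755 (Phf5a). The calls of Sf3a1, Snrpc and Prpf38a were each lost in 11 of the 12 fits without 1 library, with adjusted p of up to 0.112, 0.121 and 0.119. Those of Snrpa1 (9 fits), Sf3a3 (8), Sf3b1 (7) and Lsm1 (7) were lost with adjusted p of up to 0.0849, 0.0889, 0.0747 and 0.0754. Those of Snrpn and Prpf6 were lost without C57 vehicle replicate 2 or 3, that of Lsm4 without C57 vehicle replicate 2, and that of Prpf18 without C57 vehicle replicate 3, C57 ASIV replicate 1 or BTBR ASIV replicate 1. The highest adjusted p in those fits was 0.0541 for Snrpn, 0.054 for Prpf6, 0.0523 for Lsm4 and 0.061 for Prpf18. The share of fragments from the mitochondrial genome, 0.589 to 1.16% in BTBR vehicle and 3.57 to 5.24% in the other groups, moves with the same libraries, and its part in these values was not tested.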

How the results depend on the processing

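No called result of the 18 named genes reversed in direction. For the counts only their size was compared, so they could not be labelled as reversed. Of 1952 values recomputed for the 90 results of named genes, 1897 kept their side of the threshold, 53 were no longer called and 2 became called. The 18 genes were chosen for calls in these data, so part of this stability was set in advance. The 90 results also include comparisons in which a gene was not called, and for these a change of sign was not counted. Calls of the other genes, some of them lost in fits without 1 library, are outside this tally. The count of genes lower in BTBR under ASIV was 2, and it was 1 with no filter on low values, after rescaling to TPM (which sums to the same total in each library), with only the groups compared and with a replicate block. The labels do not say whether samples with equal replicate numbers share a litter, day or batch. Same-numbered samples of 2 groups correlated at -0.172 to 0.279 in their deviations, over 0.1 in 8 of 18 pairs. No values for differently numbered samples stand beside them, so these values cannot show whether the numbers mark a pairing. With the replicate block the counts higher and lower were 19 and 12 for the strains under vehicle, 0 and 1 under ASIV, 12 and 15 for ASIV in BTBR, and 8 and 14 for the interaction. Leaving out each library in turn gave 16 to 20 higher and 12 to 13 lower for the strains under vehicle, and 0 to 2 lower under ASIV (0 without C57 ASIV replicate 2 or 3 or BTBR ASIV replicate 3). It gave 11 to 13 higher and 13 to 16 lower for ASIV in BTBR, and 7 to 9 higher and 9 to 13 lower for the interaction (9 without C57 vehicle replicate 2 or 3). The cause was not tested. Depth limits Snrpf in BTBR vehicle, at 2 to 3 fragments a library, where the log2 difference between the strains was -2.87 with a pseudocount of 1, -4.79 with 0.1 and -5.18 with limma voom.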
